A study of Mus musculus with 6 samples.

Results

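Glycolytic genes and hypoxia-induced genes were followed in tumours of mice that had or had not received RGLS, a preparation that the series title ties to Ganoderma lucidum spores freed of their outer coat. The members were 35 named genes, 21 glycolytic enzymes and transporters and 14 other genes that low oxygen is known to induce. All 35 had a row among the 20160 rows of the deposited table. The tumours came from S-180, a mouse sarcoma line, grown subcutaneously in BALB/c nude mice, a strain without a thymus and so with few T cells. The model group held 3 tumours without RGLS. The RGLS group held 3 tumours from mice that were given RGLS before the cells. The labels name no other allele or agent and no dose or age. They also leave unsaid if each tumour had its own mouse, so the p-values here cover the spread between these samples only, which may be technical.

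Glycolysis splits glucose into pyruvate, and its enzymes are housekeeping proteins whose genes many tumours express strongly. When oxygen is low, the prolyl hydroxylases that mark the factor HIF-1alpha for destruction slow down, and HIF-1 with its partner ARNT then induces glucose transporters, most glycolytic enzymes and lactate dehydrogenase together with genes for blood vessel growth, pH control, collagen hydroxylation and cell death. Both sets of genes are therefore often read together as a sign of poorly perfused tumour tissue.

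HIF-1 is known to bind DNA at a short core written ACGTG or GCGTG, and the promoters of 3 members are shown because their rows behave differently in the data below: Ldha passed the test, Hk2 was too low for it, and Bnip3 was nearly without reads while the row opposite it was high. Each is the 250 bases before an annotated start in RefSeq on GRCm38.p6, read along the strand of the gene, with every ACGTG on either strand in capitals (CACGT is the same word on the other strand). Of 2 Ldha windows, the 1 with more matches is shown. It lay at chr7:46845554-46845803 on the plus strand and held 5 matches, 4 of which fell in 2 copies of the palindrome CACGTG, while the other window, at chr7:46846832-46847081, held 0. The Hk2 window lay at chr6:82774455-82774704 on the minus strand and held 2 matches. The Bnip3 window lay at chr7:138909507-138909756 on the minus strand and held 2 matches that shared 1 copy of CACGTG. The other core, GCGTG, is left in lower case. On either strand it stood 3 times in the Bnip3 window and 0 times in the Hk2 window and the Ldha window shown.
Ldha: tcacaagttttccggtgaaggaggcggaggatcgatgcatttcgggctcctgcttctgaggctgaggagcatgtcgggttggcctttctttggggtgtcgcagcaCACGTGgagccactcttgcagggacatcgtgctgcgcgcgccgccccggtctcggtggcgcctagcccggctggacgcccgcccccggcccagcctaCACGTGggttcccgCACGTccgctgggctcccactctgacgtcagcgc
Hk2: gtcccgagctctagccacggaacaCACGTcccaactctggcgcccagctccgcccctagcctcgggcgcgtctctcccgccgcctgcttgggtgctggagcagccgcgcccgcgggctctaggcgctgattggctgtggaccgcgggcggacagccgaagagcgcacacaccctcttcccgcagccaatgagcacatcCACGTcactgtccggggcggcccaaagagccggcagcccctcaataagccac
Bnip3: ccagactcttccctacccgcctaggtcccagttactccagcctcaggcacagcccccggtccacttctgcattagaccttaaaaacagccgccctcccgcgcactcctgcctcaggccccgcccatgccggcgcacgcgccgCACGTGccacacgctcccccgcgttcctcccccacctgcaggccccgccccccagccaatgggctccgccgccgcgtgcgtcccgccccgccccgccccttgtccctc

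RefSeq gave such windows for 33 of the 35 members. ACGTG stood on either strand in at least 1 window of 20 of them (60.6%), against 23.6% of the 12136 genes of the table that had a window. Counted by window, the shares were 47.9% of 48 and 20.4% of 15318. Among the hypoxia-induced members 11 of 13 had the core (84.6%), and among the glycolytic members 9 of 20 did (45%). With GCGTG counted as well, the shares were 90.9% of the members and 56.5% of all those genes, and 13 of 13 hypoxia-induced and 17 of 20 glycolytic members (85%) had a core. A match is a description of letters and does not mark a bound site.

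The table held CPM, read counts scaled to a fixed library size, that the authors had scaled by the TMM method, not divided by gene length. Whole reads could be recovered from it, between 369453 and 458641 per library, which is only about 2% of the library sizes the authors had scaled by. 1 read was therefore worth 0.0390 to 0.0575 CPM, and most members rested on few reads. The members held between 1 and 1534 reads over all 6 libraries, with a median of 32. Rows with 20 reads or more numbered 21 among the members and are described one by one, while the other 14 held 1 to 18. Markers of mesenchymal cells, among them vimentin and collagen chains that a sarcoma would carry, were all present but low. Their 8 rows summed to 1.48 to 2.24 CPM in model and 2.80 to 5.61 CPM in RGLS libraries. In such bulk tissue, fewer cells of a type and less RNA per cell cannot be told apart. Of all rows, 57.1% had the higher mean CPM in RGLS, but among the 2319 rows high enough to test the median log2 change was -0.17.

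Of the 21 glycolytic members 18 had a higher mean CPM in the RGLS tumours, but only Ldha, for lactate dehydrogenase A, passed the main test, and the sum over all 21 overlapped between the groups. Of the 14 hypoxia-induced members 8 had the higher mean in RGLS (57.1%, as over all rows) and none passed. Of those 8, 6 held fewer than 20 reads. Of the 21 members with 20 reads or more, 14 had the higher mean in RGLS (66.7%), 12 of 14 glycolytic and 2 of 7 hypoxia-induced members. The share was 51.3% over all rows with that many reads, and 66.5% over those that also have no gene on the other strand. Over members of any depth, leaving out each library in turn kept the glycolytic count between 15 and 19 and the hypoxia-induced count between 7 and 8. 6 of the 35 members reached 1 CPM in at least 3 libraries and entered the test, limma on log2(CPM + 1) with Benjamini-Hochberg adjustment over all 2319 rows. 1 of the 6, Ldha, passed an adjusted p of 0.05, and it was higher in RGLS. Over all rows tested, 34 passed (1.47%), 22 of them higher (0.949%) and 12 lower (0.517%). Among tested rows that, like Ldha, have no gene on the other strand, 3.05% were called higher. On the recovered reads, edgeR with its own filter tested 12 members and called Ldha higher (adjusted p = 0.029), as it did 0.953% of its rows. DESeq2 called Pkm and Ldha higher, as it did 2.16% of the 2319 rows. Among rows with no gene on the other strand, where both genes belong, those shares were 1.98% for edgeR and 7.52% for DESeq2. Rows whose RGLS libraries all lay above all model libraries numbered 3 of the 35 members (8.57%), Pfkfb3, Pkm and Ldha, against 6.95% of all rows, so the share was near that of the table. All 3 are among the 25 members with no gene on the other strand, a class in which 7.66% of rows had that pattern. Pkm and Ldha also have 20 reads or more and were tested. Within that class the share was 15.8% of rows with 20 reads or more and 13% of rows tested.

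**Figure D1:**
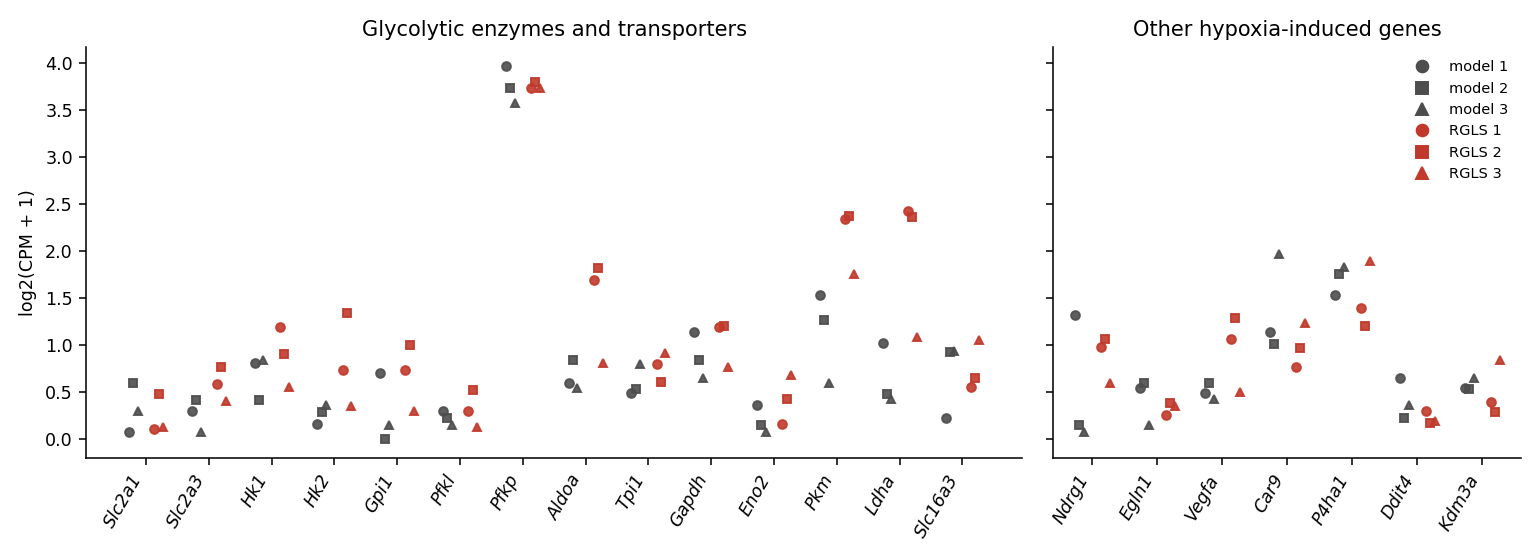
Values of the 21 members with 20 reads or more, 1 point per library, as log2(CPM + 1) on the y axis (left, glycolytic enzymes and transporters in pathway order; right, other hypoxia-induced genes), with grey for model and red for RGLS and the shape giving the library number. RGLS 1 and RGLS 2 stand above all model libraries for Ldha, Pkm, Aldoa and Vegfa, while Pfkp lies near the same height in all 6 libraries and Car9 and P4ha1 overlap between the groups.

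Ldha encodes the lactate dehydrogenase subunit that turns pyruvate into lactate at the end of fermentative glycolysis. Its gene spans chr7:46841475-46855627 on the plus strand, and no annotated gene on the other strand covers its exons. Ldha held 1.04, 0.396 and 0.342 CPM in model 1 to 3 and 4.36, 4.15 and 1.12 CPM in RGLS 1 to 3. The groups did not overlap, but RGLS 3 stood just above model 1. The summed reads, 31 in model and 231 in RGLS, gave a ratio of CPM of 5.60 (95% counting interval 3.84 to 8.44). On the log2(CPM + 1) scale, where low values move less, Ldha rose by 1.31 (SE 0.30, n = 3 per group, limma adjusted p = 0.0358). Its call was lost without RGLS 1 (limma adjusted p = 0.292), without RGLS 2 (adjusted p = 0.16), without model 2 (adjusted p = 0.085) and without model 3 (adjusted p = 0.145). Per kilobase of exon, the level went from 0.179 to 0.970 CPM, in RGLS close to that of Pfkp, at 0.931.

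Pkm, the pyruvate kinase of most tissues and of tumours, had the next largest difference among the 6. It held 1.90, 1.41 and 0.514 CPM in model 1 to 3 and 4.05, 4.19 and 2.38 CPM in RGLS 1 to 3. All RGLS libraries lay above all model libraries. The ratio of summed reads (67 in model, 251 in RGLS) was 2.82 (95% counting interval 2.14 to 3.75), and the limma log2 difference was 1.02 (SE 0.25) with an adjusted p of 0.0503, which missed the threshold. DESeq2 on the recovered reads gave Pkm an adjusted p of 0.00663, and edgeR gave 0.065. The Pkm span, chr9:59656368-59679375 on the plus strand, shared 25.8% of its 50-base exonic stretches with 8 other genes read in the same direction. For Ldha the share was 9.03%, with 167 other genes. Reads from shared stretches may have been assigned to any gene that holds them.

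Pfkp and Gapdh, 2 enzymes of the middle of the pathway, differed by less than the spread between libraries. Pfkp, the platelet form of phosphofructokinase, had most reads of all members, 1534. It held 14.6, 12.3 and 10.9 CPM in model 1 to 3 and 12.3, 12.8 and 12.3 CPM in RGLS 1 to 3, and the RGLS values lay within the range of the model values. Its limma log2 difference was -0.0047 (SE 0.146, adjusted p = 0.989; 95% interval -0.31 to 0.30), a sign that turned with the scaling, to 0.21 in DESeq2. Exons of Pitrm1, a mitochondrial protease gene on the other strand, cover 748 of its 13401 exonic bases. Which gene of the pair the reads in those bases came from was not tested, since the strand setting of the counting was not found.
Gapdh, which oxidises glyceraldehyde phosphate and often serves as a reference gene, held 1.21, 0.792 and 0.571 CPM in model 1 to 3 and 1.29, 1.31 and 0.701 CPM in RGLS 1 to 3. The groups overlapped, with RGLS 3 below model 1 and 2. Its limma log2 difference was 0.18 (SE 0.21, adjusted p = 0.641), and 24.7% of its 50-base stretches occur in other genes, mostly processed copies. Per kilobase the level of Gapdh was 0.207 CPM in model, below the 0.940 CPM of Pfkp.

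The glycolytic members too low for the test are given by their reads and mean CPM. Uptake of glucose is the work of Slc2a1 (GLUT1) and Slc2a3 (GLUT3). Slc2a1 held 14 and 13 reads in model and RGLS, a ratio of 0.698 (0.302 to 1.60). Slc2a3 held 11 and 36 reads, a ratio of 2.46 (1.23 to 5.36), and its model 2 value of 0.339 CPM lay above RGLS 3 at 0.327 CPM.
Hexokinases trap glucose as glucose 6-phosphate. Hk1, the constitutive form, held 0.629 ± 0.252 CPM in model and 0.876 ± 0.409 CPM in RGLS (SD, n = 3). Hk2, the inducible form of muscle, fat and tumours, held 0.115, 0.226 and 0.285 CPM in model 1 to 3 and 0.662, 1.53 and 0.280 CPM in RGLS 1 to 3. RGLS 1 and 2 stood above the model libraries and RGLS 3 did not. Its ratio of reads, 11 against 58, was 3.96 (2.06 to 8.38).

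Gpi1, which isomerises glucose 6-phosphate to fructose 6-phosphate, held 0.633, 0 and 0.114 CPM in model 1 to 3 and 0.662, 1.01 and 0.234 CPM in RGLS 1 to 3, and the groups overlapped. Its ratio of reads was 2.60 (1.38 to 5.26). Pfkl, the liver form of phosphofructokinase, held 9 and 18 reads.
Pfkfb3 makes fructose 2,6-bisphosphate, the strongest activator of phosphofructokinase. It had no read in any model library and 3, 3 and 2 reads in RGLS 1 to 3, so that every RGLS library stood above the model. With the model group set to a floor of 3 reads it was at least 2.01-fold higher, while the 95% counting interval of the ratio began at 1.28. These are 8 reads in all.
Aldoa, the aldolase of muscle and most tumours, held 0.518, 0.792 and 0.456 CPM in model 1 to 3 and 2.22, 2.53 and 0.748 CPM in RGLS 1 to 3. RGLS 3 fell among the model values, and the other RGLS libraries lay well above them. The 31 and 131 reads gave a ratio of 3.18 (2.13 to 4.86), and edgeR on the 3674 rows it kept by its own filter gave a log2 change of 1.63 with an adjusted p of 0.087.

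Of the remaining glycolytic members, Tpi1, the triose phosphate isomerase, held 0.532 ± 0.183 CPM in model and 0.718 ± 0.183 CPM in RGLS (SD, n = 3), a difference near the spread. Eno2, the neuronal enolase, held 8 and 24 reads, a ratio of 2.26 (0.980 to 5.81). Slc16a3 (MCT4), the hypoxia-induced lactate exporter, held 0.664 ± 0.425 CPM and 0.704 ± 0.326 CPM, a ratio of 1.03 (0.653 to 1.64).
The 7 glycolytic members with fewer than 20 reads were Pfkfb3, Pfkfb4, Aldoc, Pgk1, Pgam1, Eno1 and Pdk1, with 3 to 10 reads each. Pgk1, Pgam1 and Eno1 encode abundant enzymes of the lower pathway in most cells. Their rows held 8, 6 and 3 reads, and 53.9%, 36.2% and 26.0% of their 50-base stretches occur in other genes on the same strand. Pfkfb4, Aldoc, Pdk1 and Pfkfb3 held 7, 6, 10 and 8 reads, with 0%, 0%, 0% and 0.363% of their stretches so shared. Whether reads were dropped because of shared sequence was not tested.

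**Figure D2:**
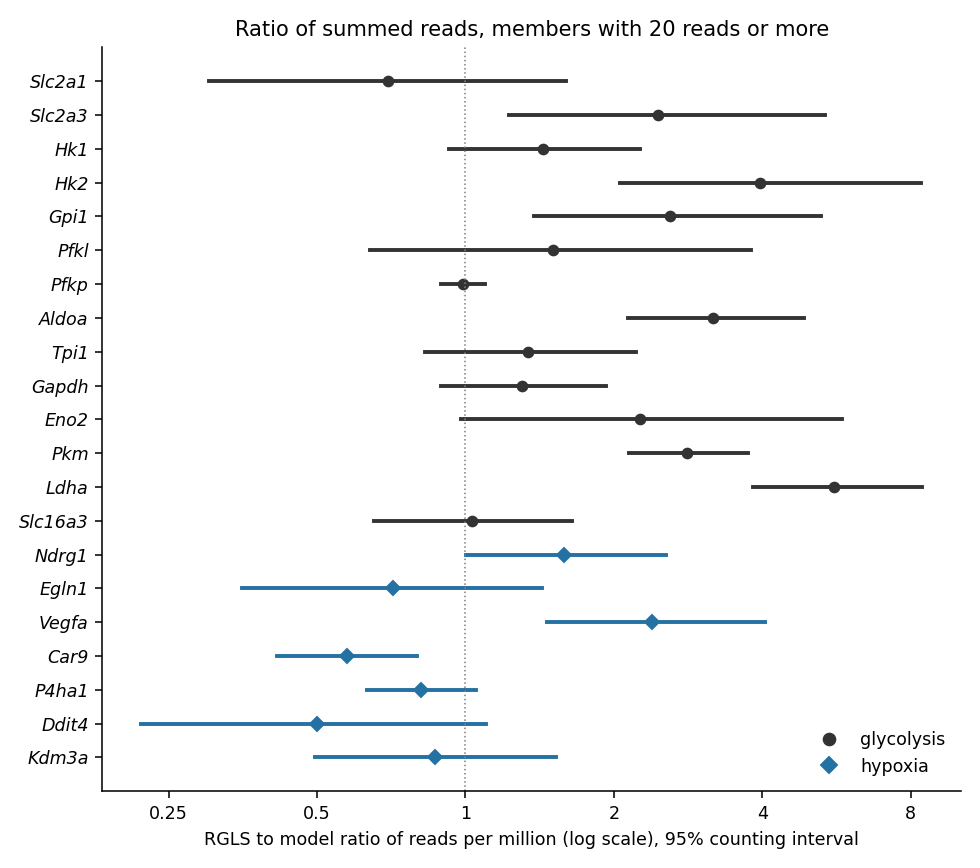
Ratio of library-scaled reads in RGLS to those in model, on a log axis, for the 21 members with 20 reads or more, with 95% intervals that cover counting error only. The interval lies above 1 for Ldha, Hk2, Aldoa, Pkm, Gpi1, Slc2a3, Vegfa and Ndrg1, below 1 for Car9, and spans 1 for the other 12.

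The hypoxia-induced members outside the pathway differed in direction, and neither of the 2 that were tested passed. The highest of them was P4ha1, the catalytic subunit of collagen prolyl 4-hydroxylase. It held 1.90, 2.38 and 2.57 CPM in model 1 to 3 and 1.64, 1.31 and 2.71 CPM in RGLS 1 to 3. The groups overlapped, with RGLS 3 the highest library of all. The limma log2 difference was -0.21 (SE 0.22, adjusted p = 0.583).
Car9, a carbonic anhydrase of the cell surface and one of the most used hypoxia markers, held 1.21, 1.02 and 2.91 CPM in model 1 to 3 and 0.701, 0.961 and 1.36 CPM in RGLS 1 to 3. Model 3 stood apart as the high library, and the other libraries overlapped. The ratio of reads was 0.576 (0.415 to 0.797), yet the limma log2 difference of -0.38 (SE 0.25) had an adjusted p of 0.371. Without model 3 that difference was -0.09.

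Vegfa, the growth factor for blood vessels, held 0.403, 0.509 and 0.342 CPM in model 1 to 3 and 1.09, 1.44 and 0.421 CPM in RGLS 1 to 3. As with Hk2 and Aldoa, RGLS 1 and 2 stood above the model libraries and RGLS 3 lay among them. Its ratio was 2.39 (1.46 to 4.06) from 22 and 70 reads.
Ndrg1, a growth arrest gene strongly induced by hypoxia, held 1.50, 0.113 and 0.0571 CPM in model 1 to 3 and 0.974, 1.09 and 0.514 CPM in RGLS 1 to 3. Model 1 was the highest of the 6 libraries and the other model libraries the lowest. The ratio was 1.58 (1.001 to 2.55).
Of the oxygen sensors, Egln1 (PHD2) held 19 and 18 reads, a ratio of 0.712 (0.353 to 1.43), and Egln3 (PHD3) held a single read. Ddit4 (REDD1), an inhibitor of mTORC1, held 18 and 12 reads, a ratio of 0.501 (0.220 to 1.10). Kdm3a, a histone demethylase, held 26 and 30 reads, a ratio of 0.867 (0.496 to 1.53).
The 7 others with fewer than 20 reads were Bnip3, Egln3, Adm, Ankrd37, P4ha2, Ero1a and Mxi1, with 1 to 18 reads each.

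Summed over each set, the 21 glycolytic members held 22.5, 19.1 and 16.2 CPM in model 1 to 3 and 29.6, 32.0 and 21.5 CPM in RGLS 1 to 3. RGLS 3 lay below model 1, so the groups overlapped. The means were 19.3 ± 3.15 CPM and 27.7 ± 5.54 CPM (SD, n = 3; 2-sided exact permutation p = 0.2). Pfkp alone made up 64.4% to 67.3% of that sum in model libraries and 40.1% to 57.3% in RGLS libraries.
Without Pfkp the other 20 members held 7.88, 6.79 and 5.31 CPM in model and 17.3, 19.2 and 9.16 CPM in RGLS. All RGLS libraries lay above all model libraries, 2.29-fold by the means (exact permutation p = 0.1, the smallest that 3 against 3 libraries can give). The sum without Pfkp was formed after its values were seen.
The 14 hypoxia-induced members held 6.85, 5.49 and 7.25 CPM in model 1 to 3 and 5.73, 5.94 and 6.59 CPM in RGLS 1 to 3. The groups overlapped throughout, with means of 6.53 ± 0.924 and 6.09 ± 0.450 CPM (SD, n = 3; exact permutation p = 0.5). The log2 ratio of the glycolytic to the hypoxia sum stood at 1.56 ± 0.346 for model tumours against 2.17 ± 0.404 for RGLS tumours (exact permutation p = 0.3). Without Pfkp it was 0.02 and 1.26 (exact permutation p = 0.1), a difference of 1.23 between the groups.

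**Figure D3:**
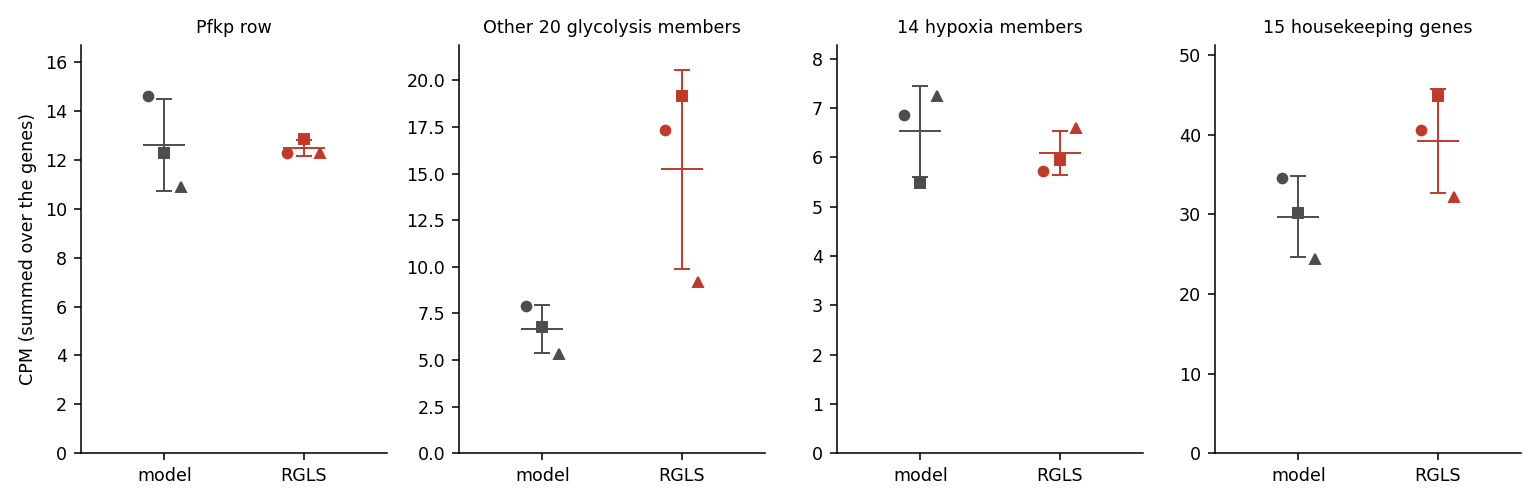
Summed CPM per library (y axis from 0) of the Pfkp row, the other 20 glycolytic members, the 14 hypoxia-induced members and 15 housekeeping genes, with 1 point per library (circle, square and triangle for libraries 1, 2 and 3), the mean as a long bar and the SD as a whisker (n = 3). The other 20 glycolytic members reach 9.16 to 19.2 CPM in RGLS against 5.31 to 7.88 CPM in model, while the hypoxia sum spans 5.49 to 7.25 CPM over all libraries.

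Other measures moved with the glycolytic sum. A set of 15 housekeeping genes summed to 24.4 to 34.6 CPM in model and 32.2 to 44.9 CPM in RGLS (exact permutation p = 0.2). Relative to that set, the 21 glycolytic members went from 0.649 ± 0.017 to 0.703 ± 0.032 (SD, n = 3; exact permutation p = 0.1), a log2 ratio of 0.12 against 0.52 in CPM. The 20 members without Pfkp went from 0.224 ± 0.005 to 0.380 ± 0.082 (SD, n = 3; exact permutation p = 0.1). Rows with no gene on the other strand took 13.6% of the table's CPM in model and 18.7% in RGLS, at 21.4% and 19.0% in RGLS 1 and 2 and 15.8% in RGLS 3.
Skeletal muscle markers, the muscle itself being rich in glycolytic enzymes, summed to 4.60 to 5.59 CPM in model and 9.96 to 11.6 CPM in RGLS over the 12 of 15 markers with a row, none of them at 0, of which 10 had the higher mean in RGLS. In RGLS 1, 2 and 3 they held 9.97, 11.6 and 9.96 CPM. The part of muscle RNA in the glycolytic values was not tested. Macrophage markers were at 15.4 CPM in model and 12.6 CPM in RGLS over 8 of 9 markers, although 7 of the 8 had the higher mean in RGLS. Epidermal markers were at 4.39 and 2.71 CPM, with 2 of 5 higher in RGLS, and adipocyte markers at 0.438 and 0.175 CPM, with 2 of 7 higher.

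At 10 members an annotated gene on the other strand covers at least 50 exonic bases, and at 3 of them that opposite row held far more reads than the member. Ndrg1 lies at chr15:66929318-66969640 on the minus strand, and Gm17035, annotated as antisense, lies wholly within its last part at chr15:66929607-66931107. Gm17035 held 146, 107 and 115 CPM in model 1 to 3 and 62.5, 127 and 71.1 CPM in RGLS 1 to 3, which is 139 times the reads of Ndrg1. RGLS 2 lay within the model range and RGLS 1 and 3 below it. The limma log2 difference was -0.55 (SE 0.20, adjusted p = 0.123). All 419 exonic bases of Gm17035 lie in Ndrg1 exons on the other strand, and its row held 12476 reads against 90 for Ndrg1. Of its 50-base stretches, 87.8% are the reverse complement of Ndrg1 exons.

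Bnip3, a mitochondrial protein that drives mitophagy and cell death under hypoxia, had no read in any model library and 2 reads in RGLS. Gm45507, antisense to its 3' part with 504 shared bases, held 13.8, 12.6 and 17.5 CPM in model 1 to 3 and 10.1, 11.8 and 15.5 CPM in RGLS 1 to 3, 814 times the reads of Bnip3. The groups overlapped (limma log2 difference -0.23, SE 0.17, adjusted p = 0.441).
Mxi1, a MYC antagonist, held 6 and 12 reads. Gm10197 on the other strand, with 194 of its 201 bases in Mxi1 exons, held 3.57, 4.24 and 3.88 CPM in model 1 to 3 and 2.65, 2.93 and 3.41 CPM in RGLS 1 to 3. All RGLS libraries lay below all model libraries, as in 22.1% of the rows tested and 4.96% of all rows, and the limma log2 difference of -0.30 (SE 0.18) had an adjusted p of 0.339.
The rows opposite members numbered 11, of which 3 were tested and 0 passed, by limma, edgeR or DESeq2. Gm17035 was the 1 that limma placed under an unadjusted threshold of 0.05, as it did 17.2% of the rows tested in the same direction. They summed to 145 ± 20.2 CPM for model tumours against 105 ± 35.0 CPM for RGLS tumours (SD, n = 3; exact permutation p = 0.3). Whether these opposite rows hold reads of the members was not tested beyond the shared sequence, since the strand setting was not found. For the same reason, which strand the reads in the member rows came from, those of Ldha and Pkm included, was not tested.

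**Figure D4:**
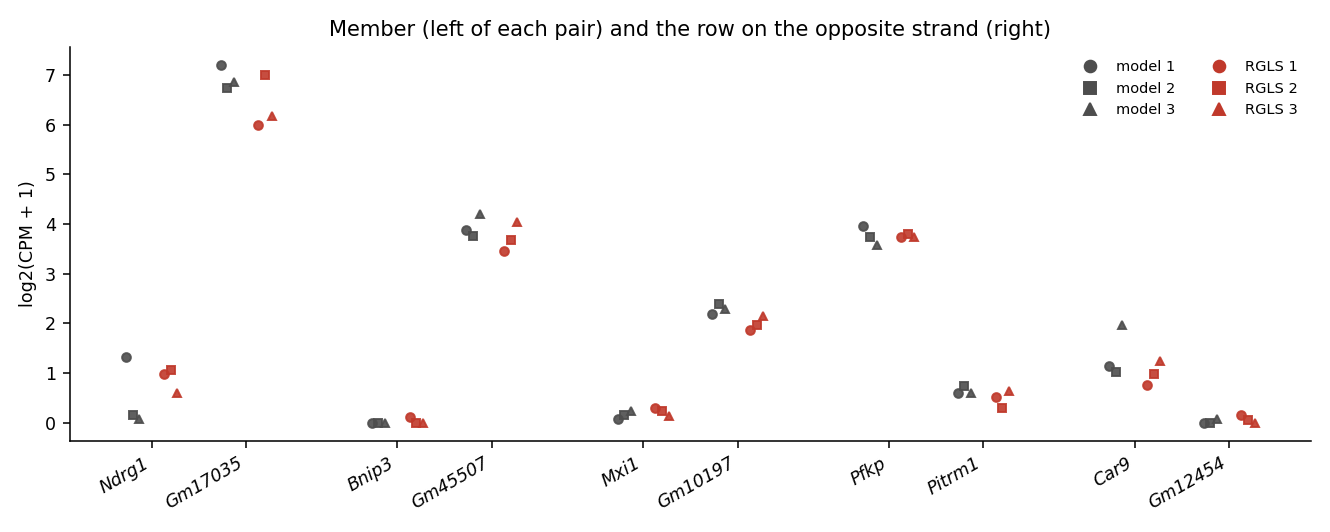
Log2(CPM + 1) in each library for 5 members (left of each pair) and the row of the gene on the opposite strand (right), grey for model and red for RGLS. Gm17035, Gm45507 and Gm10197 lie far above Ndrg1, Bnip3 and Mxi1 in all 6 libraries, while Pfkp and Car9 lie above Pitrm1 and Gm12454.

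Among the 16 glycolytic members with no gene on the other strand, 15 had the higher mean in RGLS, against 62.3% of all such rows. Their sum went from 4.66 ± 0.923 CPM to 12.4 ± 4.20 CPM (SD, n = 3; exact permutation p = 0.1). The 9 hypoxia-induced members of that kind were at 4.03 ± 0.139 and 3.97 ± 0.490 CPM (exact permutation p = 1), and 5 of them had the higher mean.

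Further genes of both pathways were read from 2 lists. Of 32 other glycolytic or gluconeogenic genes 27 had a row, 4 were tested by limma and 0 passed. Exons of another gene lie opposite 3 of the 4, over 154 of 7254 exonic bases of Pfkfb2, 162 of 1610 of Gapdhs and 2246 of 5328 of Ldhd. Which gene the reads in those bases came from was not tested. Pfkfb2, the heart form of the bifunctional regulator, differed by -0.12 on the log2 scale (adjusted p = 0.798), and Pgam2, the muscle phosphoglycerate mutase, by -0.23 (adjusted p = 0.509). Gapdhs, the sperm form of Gapdh, differed by 0.01 (adjusted p = 0.973), and Ldhd, the D-lactate dehydrogenase of mitochondria, by 0.19 (adjusted p = 0.668). At an unadjusted limma p under 0.05 there were 0 of these 4, and edgeR and DESeq2 passed 0.
Of 45 other genes of the hypoxia response 43 had a row and 1 was tested. Flt1, the VEGF receptor 1, held 0.288, 0.735 and 0.742 CPM in model 1 to 3 and 1.33, 1.05 and 1.22 CPM in RGLS 1 to 3. All RGLS libraries lay above all model libraries, as in 13% of tested rows that, like Flt1, have no gene on the other strand. The limma log2 difference of 0.48 (SE 0.20) had an adjusted p of 0.169. Of the 43 rows, 4 had all RGLS libraries above all model libraries and 2 had all below, against 6.95% and 4.96% of all rows. Hif1a, the oxygen-regulated subunit of HIF-1, held 35 and 45 reads, a ratio of 0.967 (0.608 to 1.55). The lists as a whole summed to 9.08 ± 1.04 and 10.9 ± 1.04 CPM for glycolysis (exact permutation p = 0.2) and 6.58 ± 0.758 and 10.3 ± 3.50 CPM for hypoxia (exact permutation p = 0.3), SD with n = 3.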

How the data were processed

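RNA was sequenced from 3 model and 3 RGLS tumours, grouped by the labels. Per the submitters' processing notes, Bowtie2, HTSeq and the build mm10 were used. For versions, roles and strand setting: not given in the sources used here. A table of TMM-scaled CPM for 20160 symbols in 6 columns was deposited by the authors. Within a tolerance of 0.001 read, 100% of values were whole multiples of 1 read, so counts were recovered (369453 to 458641 reads per library). These counts differed between all pairs of libraries by more than sampling noise. Values near 1 read limit precision, and intervals cover counting error only.

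The members and lists were chosen with earlier results of these data known. limma 3.58.1 (R 4.3.3), with an intensity trend, was run on log2(CPM + 1) for rows that reached 1 CPM in at least 3 libraries, 2-sided, adjusted by Benjamini-Hochberg at 0.05. Sums were compared by an exact permutation test. Alternatives were count tests on those reads (DESeq2 1.42.0, edgeR 4.0.16), other filters, pseudocounts and scalings, and leaving out each library. edgeR with its own filter and scaling by housekeeping genes were added after the data were seen. Members in the test and tested opposite rows are given per library, members with 20 reads or more by group, and the rest by range. Vegfa, Aldoa, Hk2, Gpi1, Ndrg1 and Pfkfb3 were given per library after their values were seen. Gene positions are from GENCODE on GRCm38, where 19732 symbols matched directly and 243 through a RefSeq synonym. A 95% interval of a ratio of reads is exact.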

Additional observations from a re-analysis of the deposited data

How the results depend on the processing

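The number of rows called by limma was 34, and it moved to 54 with DESeq2, 22 with a filter of 5 CPM, 275 without a filter, 13 with a pseudocount of 0.1, 14 with every library set to the same median and between 4 and 181 when 1 library was left out. Of the members, limma called 1. That count was 2 with DESeq2, 3 without a filter, 0 with the filter of 5 CPM, the pseudocount of 0.1 or the same median, also within overlapped and other rows, and 0 to 2 when 1 library was left out. The opposite rows had 0 calls, 1 without a filter and 0 to 1 when 1 library was left out, that call being Gm17035, lower in RGLS without RGLS 2. Ldha lost its call in 7 of 15 alternatives and Pkm gained one in 5 of 15, and both kept their direction. The cause was not tested. Signs turned for Pfkp (DESeq2 0.21, same median 0.10, within classes 0.17, leaving out 1 library -0.10 to 0.10), Pfkfb2 (within classes 0.061, leaving out 1 library -0.35 to 0.10), Rpe (within classes 0.045), Gapdhs (-0.16 to 0.18) and Ldhd (-0.10 to 0.43), none of which passed the test. The log2 ratio of the hypoxia sum was -0.10, and it was 0.091 with the table's own reads as library size. No other sum, direction or count of members with a higher mean changed its side under the alternatives run.

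With the replicate number as a block, 231 rows, 2 members and 1 opposite row were called. The deviations of same-numbered libraries correlated at 0.0044, -0.0056 and 0.38. RGLS 1 and 2 correlated better with another number than with their own, while the 0.38 of model 3 with RGLS 3 was the highest of all pairs. So few libraries cannot show if the numbers pair the samples. At 1 read per 0.0390 to 0.0575 CPM, a difference in a member with fewer than 20 reads was hardly detectable at this depth.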

Other observations

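Sugar carbon can leave glycolysis through the pentose phosphate pathway, which makes NADPH and ribose. All 7 of its listed genes had a row, and in 4 (G6pdx, Pgd, Tkt and Taldo1) every RGLS library lay above every model library, against 6.95% of all rows. Among rows with 20 reads or more, as G6pdx, Pgd and Tkt have, that share was 10.7%. It was 15.8% among those that also have no gene on the other strand. G6pdx, the entry enzyme, held 4 reads in model and 26 in RGLS, a ratio of CPM of 4.89 (95% counting interval 1.70 to 19.3). Pgd, the next dehydrogenase, held 5 and 32 reads, a ratio of 4.81 (1.86 to 15.8). Tkt, the transketolase, held 8 and 27 reads, a ratio of 2.54 (1.12 to 6.46), and Taldo1 held 0 and 3. Exons of Ikbkg lie opposite G6pdx. Rpe, the only 1 of the 7 that limma tested, differed by -0.13 (adjusted p = 0.713), and 0 passed. The 7 genes summed to 1.98 ± 0.247 CPM in model and 2.69 ± 0.267 CPM in RGLS (SD, n = 3; exact permutation p = 0.1, the smallest possible).

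Pyruvate that is not turned into lactate enters mitochondria. None of the 11 genes listed for that route was high enough to test. Cs, the citrate synthase, had most reads, 19 and 60, a ratio of 2.37 (1.40 to 4.21). Pdha1, a subunit of pyruvate dehydrogenase, held 19 and 43 reads (0.970 to 3.09 around 1.70), and Mpc2, a pyruvate carrier subunit, held 9 and 28 (1.07 to 5.63 around 2.34). Their sums were 1.98 ± 0.642 and 3.06 ± 1.15 CPM (SD, n = 3; exact permutation p = 0.3). Slc16a1 (MCT1), the lactate carrier that is not a member, held 0.345, 0.283 and 0.114 CPM in model 1 to 3 and 1.05, 0.917 and 0.561 CPM in RGLS 1 to 3. All RGLS libraries lay above all model libraries, as in 15.8% of rows with 20 reads or more and no gene on the other strand. Slc16a1 is such a row, and it was chosen after its values were seen.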
